A study of Mus musculus with 3 samples.

Results

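Proteoglycans are proteins that carry long sulfated sugar chains, and hyaluronan is the related chain that is made without a protein core. The transcripts of 31 genes of this system were followed in mammary tumours of the mouse: 9 small leucine-rich proteoglycans, 4 hyalectans, 2 basement membrane proteoglycans, 4 syndecans, 6 glypicans, NG2 (Cspg4), serglycin (Srgn), 3 hyaluronan synthases and the hyaluronan receptor CD44. The genes were taken by symbol from a list, not by their values, and all 31 had a row among the 21881 gene symbols measured. Total RNA was sequenced in 3 snap-frozen tumours of NDL(UCD), a transplantable line of an ErbB2 mammary cancer model, each grown in a different mouse. The NDL model is known for an activated Erbb2 (Neu) transgene driven by a mammary tumour virus promoter. The hosts were female FVB/NJ mice of 6 to 8 weeks with uncleared mammary fat pads, so host epithelium, stroma and immune cells were present, and each injection held 0.1 to 2.0 M (1e6) cultured cells. Harvest was at a maximum tumour width between 5 and 10 mm. The 3 tumours formed 1 group from 1 line without treatment and without a normal or other tumour group, so genes were set against each other, against 1 FPKM as a fixed level, and across tumours.

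As background, glycosaminoglycan chains are built in the Golgi apparatus on serines of a core protein, through a short linkage region that is extended to heparan sulfate or to chondroitin and dermatan sulfate, and sulfotransferases then set the pattern that growth factors, chemokines and matrix proteins bind. Hyaluronan is instead made at the plasma membrane by synthases and bound by CD44, RHAMM (Hmmr) and hyalectans. In mammary tissue, fibroblasts are the known main source of decorin, lumican and versican, whereas epithelial cells carry syndecan 1 and syndecan 4 at their surface.

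Levels are given as FPKM, fragments per kilobase of transcript and per 1e6 mapped fragments, in the order tumour 1, tumour 2 and tumour 3, or as mean ± SD over n = 3 tumours. Depth, as implied by the deposited intervals, was 11.7, 12.4 and 13.4 M (1e6) fragments. The libraries differed in how FPKM followed base composition. At a transcript GC content of 41.5%, the trend over all genes stood at a log2 deviation of 0.54 in tumour 1 and -0.47 in tumour 3. At a GC content of 57.5% it stood at -0.45 and 0.33. Values of the 31 genes in the 3 tumours are therefore given as deposited and, for genes described as high or low in a tumour, also after removal of the GC and length trends. Values of other genes are as deposited unless stated. The sample titles hold numbers that the labels do not explain, so lanes or library batches cannot be told apart from differences between tumours. In bulk tumours, fewer cells of a type and less RNA per cell cannot be told apart.

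Most of these genes were transcribed in the tumours, and the total was carried by few of them. By limma on log2((FPKM + 0.1)/(1 + 0.1)) with Benjamini-Hochberg adjustment over 18028 symbols, 17 of the 31 genes were above 1 FPKM, against 54.2% of all symbols tested. Another 9 were below it, against 32.5%, 4 were not separated from it and Gpc5 was listed at 0 in every tumour. Both shares lie near the background, and with the GC and length trends removed the same genes were called, against 55.5% and 33.1%. The median of the mean levels was 2.60 FPKM for the 30 genes above 0 and 2.44 FPKM for all symbols tested. Syndecan 4 alone made up 44.1%, 49.7% and 57.3% of the summed FPKM of the 31 genes as deposited. With the trends removed it stood at 159, 207 and 239 of a summed 318, 425 and 437 FPKM. It was followed by biglycan, CD44, syndecan 1, serglycin and decorin, down to 12.7 ± 3.94 FPKM for decorin. When FPKM was rescaled to a total of 1e6, which moved the median gene up by 1.46 on the log2 scale, 21 were above and 5 below, against 64.5% and 23.3% of all symbols.

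**Figure D1:**
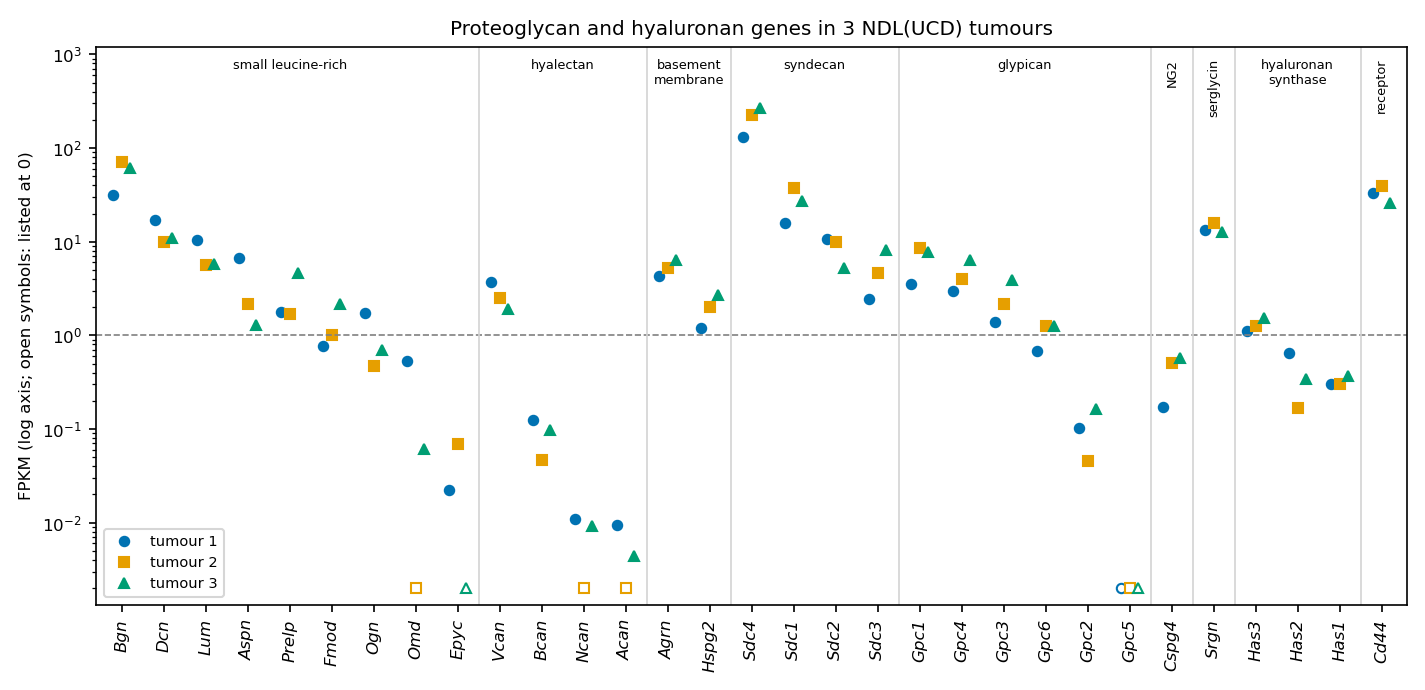
FPKM of the 31 proteoglycan and hyaluronan genes in each of the 3 tumours (log axis), grouped by class, with the dashed line at 1 FPKM and open symbols at the lower edge for values listed at 0. Sdc4 lies highest, at 132 to 266 FPKM, and every hyalectan other than Vcan lies below 1 FPKM in all 3 tumours.

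The small leucine-rich proteoglycans are secreted matrix proteins that bind collagen fibrils. Of the 9, 5 were above 1 FPKM and 2 below, beside 54.2% and 32.5% of all symbols. Biglycan (Bgn), which carries chondroitin or dermatan sulfate, was measured at 31.8, 70.4 and 60.8 FPKM. Tumour 1 lay lowest, also with the trends removed at 41.3, 64.4 and 51.2 FPKM. The mean of 54.3 ± 20.1 FPKM stood at percentile 96.0 of all symbols tested. As deposited Bgn held 44.8%, 76.9% and 70.5% of the FPKM of its class. With the trends removed the class summed to 65.4, 87.6 and 85.3 FPKM, so the low share in tumour 1 was not kept. Decorin (Dcn), its close relative and a binder of TGF-beta, was measured at 17.2, 10.0 and 10.8 FPKM. Here tumour 1 lay highest as deposited but lowest with the trends removed, at 8.71, 11.6 and 17.7 FPKM. The share of the class as deposited was 24.2%, 11.0% and 12.6%. Within each tumour Dcn was below Bgn, with differences of -0.88, -2.80 and -2.48 on the log2(FPKM + 0.1) scale. The mean difference of -2.05 ± 1.03 had the same sign in 3 of 3 tumours, and the exact sign-flip permutation p of 0.25 is the smallest that 3 tumours can give.

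Lumican (Lum), which carries keratan sulfate in cornea and is a core protein in many soft tissues, was measured at 10.5, 5.66 and 5.74 FPKM. Tumour 1 was highest as deposited, but with the trends removed the values were 7.77, 5.76 and 7.60 FPKM and tumours 1 and 3 lay close together. Dcn exceeded Lum by 0.71, 0.81 and 0.90 on the log2 scale, with an SD of 0.10 over tumours. That SD rose to 0.55 once the GC and length trends were removed, where the mean difference was 0.79. Both genes lie on chromosome 10 of the mm9 build, Dcn at 96942134 to 96980796 and Lum at 97028135 to 97035337, 47.3 kb apart with no listed gene between them. Epiphycan (Epyc), a cartilage member of the same cluster, was listed at 0.0223, 0.0697 and 0 FPKM, which is at most 3 fragments in any tumour.

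Asporin (Aspn), a member that lacks a glycosaminoglycan chain, had the widest spread between tumours among the 6 genes of the class with a mean of 1 FPKM or more. Its levels were 6.67, 2.19 and 1.28 FPKM, a highest-to-lowest ratio of 5.22. Tumour 1 stood well above the others as deposited, but with the trends removed the values were 3.07, 2.68 and 2.10 FPKM and the ratio 1.46. Asporin had the lowest transcript GC content of the 31 genes, 34.3%. Osteoglycin (Ogn), also called mimecan, was measured at 1.73, 0.468 and 0.692 FPKM. Osteomodulin (Omd), known from bone, was measured at 0.527, 0 and 0.0614 FPKM, and a count of 0 in tumour 2 allows up to 0.0636 FPKM. Omd was called below 1 FPKM, except with a total of 1e6 (limma adjusted p = 0.0969). Both were highest in tumour 1 as deposited. With the trends removed Ogn was 0.887, 0.547 and 1.09 FPKM, highest in tumour 3, and Omd was 0.268, 0 and 0.0967 FPKM. Aspn, Omd and Ogn lie side by side on chromosome 13 (mm9), with gaps of 15.2 and 15.5 kb, and all 3 lie inside the locus of Cenpp. Cenpp itself was measured at 4.71, 3.65 and 3.39 FPKM. The sources used here do not say whether counting used the strand, so reads of these overlapping genes may have been split and their values are uncertain.

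Prolargin (Prelp), which ties basement membranes to the underlying matrix, and fibromodulin (Fmod), a collagen-binding keratan sulfate proteoglycan, went the other way. Prelp was measured at 1.77, 1.69 and 4.67 FPKM, and Fmod at 0.767, 0.997 and 2.16 FPKM. Tumour 3 was highest for both genes and lay apart from the other tumours. With the trends removed Prelp was 2.35, 1.56 and 3.82 FPKM and Fmod 1.04, 0.910 and 1.74 FPKM, so tumour 3 remained highest. Without tumour 3, Prelp was no longer called above 1 FPKM (limma adjusted p = 0.0613). The genes are neighbours on chromosome 1 (mm9), 116 kb apart. Fibromodulin was lower than lumican in every tumour, with differences of -3.61, -2.39 and -1.37 on the log2 scale.

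RefSeq promoters on GRCm38.p6 were available for 7 of the 9 genes of the class. The 100 bases before the annotated start are shown for Bgn, Aspn and Ogn because they set the most abundant gene of the class beside the neighbours with AT-rich transcripts. They lie at chrX:73483501-73483600, chr13:49544343-49544442 and chr13:49607915-49608014, all on the plus strand.
Bgn: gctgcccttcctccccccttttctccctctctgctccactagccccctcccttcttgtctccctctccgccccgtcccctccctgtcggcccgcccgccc
Aspn: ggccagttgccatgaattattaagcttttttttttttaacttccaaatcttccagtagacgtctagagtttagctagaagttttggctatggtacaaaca
Ogn: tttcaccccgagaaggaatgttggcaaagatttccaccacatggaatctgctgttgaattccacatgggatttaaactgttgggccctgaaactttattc
The GC content of these stretches was 71.0% for Bgn, 35.0% for Aspn and 43.0% for Ogn. The letters TATAA, searched on both strands in the last 50 bases before the start, were in none of the 3. They were found in 6.36% of the 32851 promoters of the table.

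The hyalectans bind hyaluronan through one end of the core protein and carry chondroitin sulfate. Versican (Vcan), the soft-tissue member, was measured at 3.76, 2.51 and 1.93 FPKM. Tumour 1 was highest and tumour 3 lowest, with a ratio of 1.94 that fell to 1.15 with the trends removed, at 2.79, 2.73 and 2.44 FPKM. Versican held 96.3%, 98.2% and 94.5% of the FPKM of the class. Aggrecan (Acan), the cartilage proteoglycan, was listed at 0.0095, 0 and 0.0044 FPKM, and neurocan (Ncan), of brain matrix, at 0.011, 0 and 0.0091 FPKM. Brevican (Bcan), also of brain matrix, was measured at 0.125, 0.0461 and 0.0978 FPKM. Each rests on few fragments, with a highest value of 11.0 fragments for Bcan in tumour 1. Cartilage and neural markers were checked beside these values. Of 7 cartilage markers Col9a1 was above 1 FPKM at 66.0 ± 5.21. Comp was measured at 0.596, 1.25 and 0.570 FPKM and was not separated from 1 FPKM. Col2a1 was at 0.403, 0.859 and 0.354 FPKM and Hapln1 was listed at 0 in every tumour. Of 7 glial and neuronal markers Mbp was above 1 FPKM at 6.21 ± 1.10, and Snap25 was listed at 0.

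Perlecan (Hspg2) and agrin (Agrn) are large heparan sulfate proteoglycans of basement membranes. Agrn was measured at 4.32, 5.24 and 6.32 FPKM and was above 1 FPKM. The tumours lay within a ratio of 1.46, which became 1.04 with the trends removed. Hspg2 was measured at 1.21, 2.03 and 2.72 FPKM, or 1.51, 2.06 and 2.19 FPKM with the trends removed. Its call above 1 FPKM (limma adjusted p = 0.024) was lost without tumour 2 (adjusted p = 0.178) or without tumour 3 (adjusted p = 0.13). Agrn exceeded Hspg2 in 3 of 3 tumours, and the difference Hspg2 minus Agrn was -1.42 ± 0.30 on the log2 scale. Hspg2 minus Vcan was -1.56, -0.29 and 0.47, so perlecan was below versican in tumours 1 and 2 and above it in tumour 3. With the trends removed that difference was negative in 3 of 3 tumours, at -0.46 ± 0.35.

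The syndecans are the transmembrane heparan sulfate proteoglycans, and all 4 were above 1 FPKM, beside 54.2% of all symbols. Syndecan 4 (Sdc4), which sits in focal adhesions and is found in most cell types, was measured at 131.9, 224 and 265.9 FPKM. Tumour 1 was lowest, at 159 against 207 and 239 FPKM with the trends removed. The mean of 207 ± 68.5 FPKM stood at percentile 99.0 of all symbols tested, and Sdc4 held 82.1%, 81.2% and 86.8% of the syndecan FPKM. Syndecan 1 (Sdc1), the main syndecan of epithelia and plasma cells, was measured at 15.7, 37.3 and 27.1 FPKM. Tumour 2 was highest, also with the trends removed at 21.6, 34.0 and 21.5 FPKM. Sdc1 minus Sdc4 was -3.06, -2.58 and -3.29 on the log2 scale, a 7.88-fold difference on average. Its place at percentile 91.7 still put it among the more abundant transcripts.

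Syndecan 2 (Sdc2), known from mesenchymal cells, was measured at 10.6, 9.99 and 5.24 FPKM. Tumour 3 was lowest as deposited. With the trends removed the values were 7.35, 10.3 and 7.27 FPKM and tumours 1 and 3 no longer separated. Syndecan 3 (Sdc3), best known from the nervous system, was measured at 2.47, 4.64 and 8.12 FPKM. The tumours were spread over a ratio of 3.29, the widest of the syndecans, and kept this order at 3.23, 4.32 and 6.70 FPKM with the trends removed. The order Sdc4, Sdc1, Sdc2 held in each tumour. Sdc2 and Sdc3 changed places in tumour 3 only as deposited. With the trends removed Sdc2 was above Sdc3 in every tumour. Sdc1 exceeded Sdc2 by 1.60 ± 0.93 on the log2 scale as deposited and by 1.60 ± 0.09 with the trends removed.

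Both of the most abundant syndecans had the letters TATAA within the last 50 bases before the annotated start, searched on both strands. Sdc3 lacked them, no promoter was available for Sdc2, and a link to the level was not tested. The letters were found in 3 of the 27 promoters matched to 24 of the 31 genes. The share over all promoters is given above with Bgn, Aspn and Ogn. The third was that of Ncan, a gene near 0 FPKM. The 100 bases before the start are shown for Sdc4, minus strand of chr2:164443189-164443288, and Sdc1, plus strand of chr12:8771296-8771395, with TATAA or its reverse complement TTATA in capitals.
Sdc4: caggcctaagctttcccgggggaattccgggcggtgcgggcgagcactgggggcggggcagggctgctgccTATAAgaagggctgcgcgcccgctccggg
Sdc1: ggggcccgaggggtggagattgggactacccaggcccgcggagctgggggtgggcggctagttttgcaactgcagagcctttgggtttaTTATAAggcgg
The GC content of these 100 bases was 73.0% and 63.0%. Over the longer stretch available before each start it was 68.0% for Sdc4 and 66.0% for Sdc1. The median over the promoters of the table, taken on that longer stretch, was 52.4%.

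Glypicans are heparan sulfate proteoglycans held at the membrane by a lipid anchor and known as modulators of Wnt, Hedgehog and FGF signals. Glypican 1 (Gpc1), a member described in several carcinomas, was measured at 3.52, 8.51 and 7.75 FPKM. Tumour 1 was lowest, also with the trends removed at 4.72, 7.83 and 6.27 FPKM. Glypican 4 (Gpc4) was measured at 3.01, 3.98 and 6.30 FPKM. Glypican 3 (Gpc3), an oncofetal protein of liver cancer, was measured at 1.40, 2.14 and 3.93 FPKM. Tumour 3 was highest for both, also with the trends removed at 5.38 FPKM for Gpc4 and 3.74 FPKM for Gpc3, and these genes are neighbours on the X chromosome (mm9), 108 kb apart. The highest-to-lowest ratio of Gpc3 was 2.81 as deposited and 2.37 with the trends removed, while that of Gpc4 went from 2.09 to 1.48. Without tumour 3, Gpc3 was no longer called above 1 FPKM (limma adjusted p = 0.0614).

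Glypican 6 (Gpc6), measured at 0.687, 1.25 and 1.26 FPKM, was not separated from 1 FPKM. Glypican 2 (Gpc2), a developmental neural member, was below it at 0.103, 0.0458 and 0.165 FPKM. Gpc5, the neighbour of Gpc6 at a distance of 400 kb on chromosome 14 (mm9), was listed at 0 in all 3 tumours. As a class the glypicans were far below the syndecans: the mean log2 level of the syndecans was higher by 4.27, 4.55 and 4.09. The glypican mean includes Gpc5 at 0 and the low Gpc2, so the size of these differences depends on the pseudocount of 0.1. Gpc1 exceeded Gpc3, Gpc4 and Gpc6 in every tumour. Its margin over Gpc4 was small in tumours 1 and 3, at 0.22 and 0.29 on the log2 scale, and 1.08 in tumour 2.

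NG2 (Cspg4), a transmembrane chondroitin sulfate proteoglycan of pericytes, was measured at 0.173, 0.508 and 0.574 FPKM and was called below 1 FPKM. Tumour 1 was lowest, also with the trends removed at 0.218, 0.495 and 0.472 FPKM. The call below 1 FPKM was lost when loci under 300 bp were left out before rescaling (limma adjusted p = 0.0824), and with a total of 1e6 the level turned to 0.078 on the log2 scale. The summed FPKM of 9 pericyte and smooth muscle markers was 40.5, 72.9 and 65.3, with 6 of the 9 above 1 FPKM and none at 0. With the trends removed the sums were 45.6, 68.3 and 58.4 FPKM, and tumour 1 was lowest both ways. Without Acta2, the highest of them, they were 22.2, 31.3 and 26.5 FPKM, and 23.1, 30.0 and 24.1 FPKM with the trends removed. Of the 7 markers with a mean of at least 1 FPKM, 5 were lowest in tumour 1 and 2 in tumour 3 as deposited. Serglycin (Srgn), which packs the granules of mast cells and other blood cells, was measured at 13.5, 15.9 and 12.6 FPKM. The tumours lay within a ratio of 1.26, and the gene was not called different between them. Mast cell markers summed to 0.868, 0 and 3.65 FPKM, with Fcer1a and Ms4a2 listed at 0 in every tumour. All 7 macrophage markers were above 1 FPKM and summed to 243, 437 and 902 FPKM. The 5 neutrophil markers with a row summed to 4.67, 12.8 and 28.2 FPKM, with Elane listed at 0, and T and NK cell markers to 1.79, 4.89 and 8.68 FPKM. These sums were highest in tumour 3 both as deposited and with the trends removed, and Srgn was lowest there as deposited. With the trends removed Srgn was 10.8, 15.7 and 15.8 FPKM. The part of these cells in the Srgn level was not tested.

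The hyaluronan synthases were low and the hyaluronan receptor was high. Has3, whose product makes shorter chains, was measured at 1.12, 1.24 and 1.52 FPKM and was not separated from 1 FPKM, although it was above it when loci under 300 bp were left out (limma adjusted p = 0.0108). Has1, the least active synthase, was measured at 0.306, 0.299 and 0.369 FPKM, and Has2, the main synthase of mesenchyme, at 0.642, 0.166 and 0.345 FPKM. Both were called below 1 FPKM. With the trends removed Has2 was 0.403, 0.177 and 0.507 FPKM, so tumour 1 was highest only as deposited. Its call was lost without tumour 2 (limma adjusted p = 0.0939) and without loci under 300 bp (limma adjusted p = 0.118), and with a total of 1e6 both calls were lost, at limma adjusted p = 0.738 for Has1 and 0.922 for Has2. Has2 was lower than Has3 in 3 of 3 tumours, with differences of -0.72, -2.34 and -1.86 on the log2 scale, while Has1 and Has2 changed order between tumours. Has2 overlaps its antisense gene Has2as, listed at 0.677, 0 and 3.09e-07 FPKM, and without a stated strand setting their reads cannot be told apart.

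Cd44, which binds hyaluronan and is known as a marker of invasive and stem-like tumour cells, was measured at 33.1, 39.5 and 25.9 FPKM. Tumour 2 was highest, also with the trends removed at 27.3, 39.3 and 32.0 FPKM, while the lowest was tumour 3 as deposited and tumour 1 with the trends removed. The mean of 32.8 ± 6.81 FPKM stood at percentile 93.2 of all symbols tested. Cd44 exceeded Has2 by 5.49, 7.22 and 5.87 on the log2 scale while Srgn minus Cd44 was -1.29, -1.31 and -1.03. Hmmr, which encodes RHAMM, a hyaluronan-binding protein of the mitotic spindle, was measured at 12.5, 2.81 and 1.34 FPKM. It was highest in tumour 1, with a ratio of 9.34 that became 4.67 with the trends removed. Cd44 exceeded Hmmr in each tumour, by 1.40, 3.77 and 4.17.

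Of the 27 differences between genes or gene classes within a tumour, 25 had the same sign in 3 of 3 tumours. The exceptions were Hspg2 minus Vcan and Has1 minus Has2. The 25 had an exact sign-flip permutation p of 0.25 and an adjusted p of 0.27, so none could pass a threshold of 0.05 with 3 tumours. These 25 ranged in size from 0.32 for heparan sulfate synthesis minus chondroitin and dermatan sulfate synthesis to 6.19 for Cd44 minus Has2. The smallest of these turned sign with a pseudocount of 0.01, at -0.15.

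**Figure D2:**
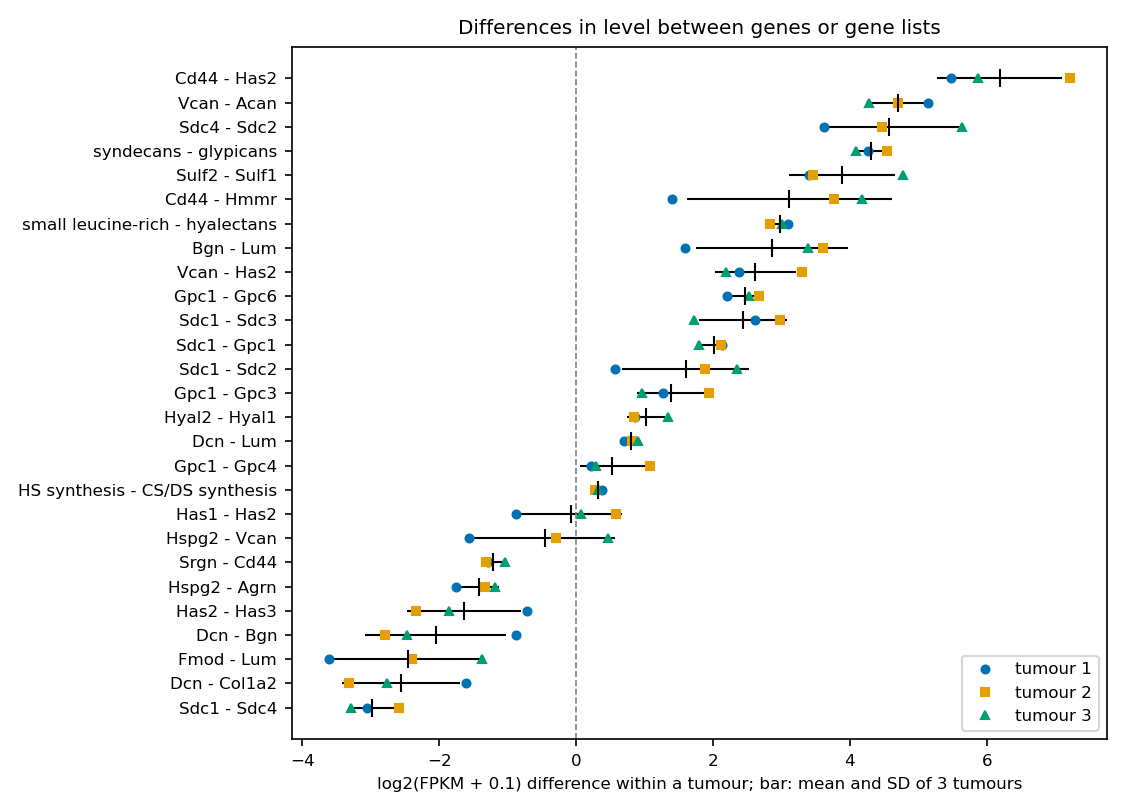
Differences of log2(FPKM + 0.1) between genes or gene classes within each tumour, as points for the 3 tumours with the mean and SD. Cd44 minus Has2 and Vcan minus Acan lie far above 0 in every tumour, and Has1 minus Has2 and Hspg2 minus Vcan lie on both sides of 0.

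Differences between tumours were tested for the 20 genes that reached 1 FPKM on average, by Cochran's Q on the deposited counting errors, with a call at an adjusted p under 0.05 and a highest-to-lowest ratio of at least 2. As deposited 12 of the 20 were called, against 32.1% of the 11193 genes tested. The called genes were Bgn, Fmod, Prelp, Aspn, Hspg2, all 4 syndecans, Gpc1, Gpc3 and Gpc4. With the GC and length trends removed 5 of the 20 were called, against 16.8%. These were Prelp, Sdc3 and Gpc3, called both ways and highest in tumour 3 both ways, and Dcn and Gpc6, called only with the trends removed. The median ratio of the 20 genes was 2.06 as deposited, against 1.75 over all genes tested, and 1.49 with the trends removed, against 1.42. The number of calls rested on tumours 1 and 3. Without tumour 1 only Fmod and Prelp were called, against 5.68% of all genes. Without tumour 2 there were 11 calls, against 29.4%, and without tumour 3 the calls were Bgn, Ogn, Aspn, Sdc1 and Gpc1, against 14.1%. The scaling also decided single calls. With median-of-ratios scaling 10 genes were called, against 27.9%, where Dcn, Lum, Vcan and Ogn came in and Bgn, Hspg2, Sdc1, Sdc4, Gpc1 and Gpc4 dropped out.

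Tumour 1 was the lowest of the tumours for 12 of the 20 genes as deposited, a count that was not made over all genes. It lay below the mean of the others for 14 of the 20, beside 7327 of all 11193 genes tested. With the trends removed these counts were 16 of the 20 and 5731 of 11146. The median log2 deviation of tumour 1 from the other tumours was -0.68 for the 20 genes and -0.35 for all genes tested, and with the trends removed -0.35 and -0.01. Tumour 3 was the highest for 10 of the 20 as deposited, again not counted over all genes. Its medians were 0.38 and 0.20 as deposited and 0.28 and 0.00 with the trends removed. It lay above the mean of the others for 13 of the 20 as deposited, beside 6802 of 11193 genes. With the trends removed these counts were 13 of the 20 and 5616 of 11146. The direction of a gene between tumours 1 and 3 went with its base composition. The 7 genes higher in tumour 1, Dcn, Lum, Aspn, Vcan, Sdc2, Srgn and Cd44, had transcript GC contents of 34.3% to 44.5%. The 13 higher in tumour 3 had 45.7% to 60.9%, so the ranges did not overlap. Over the 20 genes, which share the same libraries, GC content and the log2 difference had a Pearson r of 0.84 and a Spearman rho of 0.77. The Pearson r was 0.51 over all 11065 genes tested with a known GC content, and 0.26 for the 20 genes with the trends removed. Removal turned the sign for 5 genes, Dcn, Agrn, Sdc1, Srgn and Cd44, and kept it for 15.

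**Figure D3:**
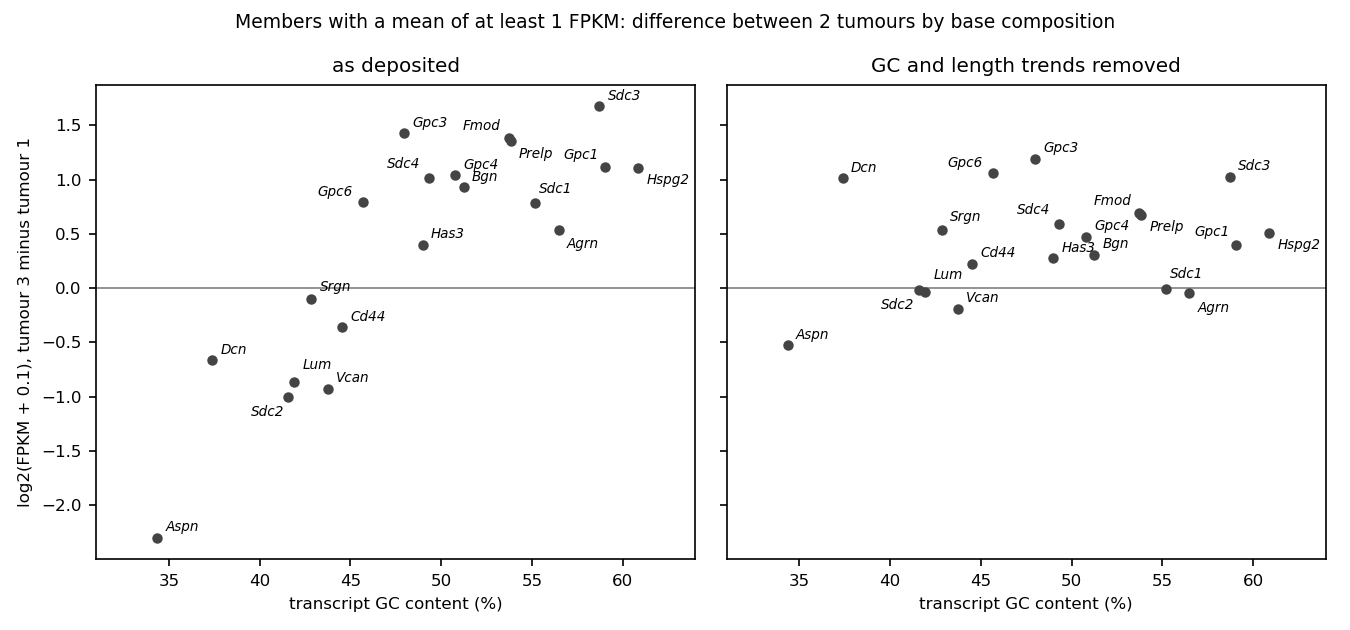
Log2(FPKM + 0.1) difference of tumour 3 minus tumour 1 against transcript GC content (percent) for the 20 genes that reached 1 FPKM on average, as deposited on the left and with GC and length trends removed on the right. On the left every gene at 44.5% GC or less lies under 0 and every gene at 45.7% or more lies over 0, and on the right 14 of the 20 lie over 0.

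Cell type markers were set beside these genes. The 9 fibroblast markers, of which 7 were above 1 FPKM and none was at 0, summed to 163, 307 and 279 FPKM, with 205, 288 and 238 when the trends were removed. Tumour 1 was lowest in both sums. The sum rested in part on Col3a1, without which the values were 105, 191 and 157 FPKM, and 134, 179 and 132 FPKM with the trends removed, where tumour 3 was lowest. Dcn was below Col1a2, a collagen of fibroblasts, with differences of -1.61, -3.31 and -2.76 on the log2 scale. The 6 luminal epithelial markers were all above 1 FPKM and summed to 757, 1137 and 1083 FPKM as deposited and to 1067, 1033 and 839 FPKM with the trends removed. Without Krt18, the highest of them, the deposited sums were 391, 494 and 514 FPKM. With the trends removed they were 540, 449 and 406 FPKM, so tumour 1 went from lowest to highest. Of 4 basal epithelial markers Krt14 was above 1 FPKM at 2.80, 10.4 and 1.07 FPKM, a call that was lost with the trends removed, and Krt5, Krt17 and Trp63 were below it. The 8 endothelial markers summed to 19.7, 30.0 and 29.4 FPKM, and the 5 adipocyte markers to 60.3, 44.7 and 195 FPKM. The part of these cells in the differences between tumours was not tested.

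The machinery that builds and breaks down the chains was followed in 10 lists of 116 genes, of which 115 had a row. Of these 60 were above 1 FPKM, 35 below and 15 not separated, against the same 54.2% and 32.5% of all symbols, and 5 were listed at 0. The most abundant was Papss1, which makes the sulfate donor, at 74.7, 106 and 124 FPKM, while its relative Papss2 was measured at 0.452, 0.494 and 0.526 FPKM. Of the 13 genes of sulfate and sugar nucleotide supply, 9 were above 1 FPKM. They included Uap1, which makes the activated N-acetylglucosamine, at 22.2, 22.4 and 25.6 FPKM. Of the 6 genes of the linkage region 5 were above 1 FPKM, led by Fam20b, a xylose kinase, at 24.6 ± 4.18 FPKM. Xylt1 was below it, at 0.107, 0.394 and 0.497 FPKM, beside Xylt2 at 1.60, 3.41 and 3.15 FPKM.

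For heparan sulfate synthesis, 12 of 20 genes were above 1 FPKM and 4 below, beside 54.2% and 32.5% of all symbols. Hs3st1, a 3-O-sulfotransferase known from the antithrombin-binding motif, was the highest at 30.7, 33.2 and 34.8 FPKM, with little spread between tumours. Ndst1, the N-deacetylase and N-sulfotransferase, was measured at 20.2, 25.8 and 33.6 FPKM, and the polymerases Ext1 and Ext2 at 11.5 ± 1.75 and 9.23 ± 2.29 FPKM. The tissue-restricted relatives Ndst4 and Hs3st2 were listed at 0. Of the extracellular enzymes that edit heparan sulfate, Sulf2 was measured at 30.6, 41.2 and 46.0 FPKM and Sulf1 at 2.79, 3.65 and 1.58 FPKM. Both are 6-O-endosulfatases, and Sulf2 exceeded Sulf1 by 3.88 ± 0.77 on the log2 scale in 3 of 3 tumours. Heparanase (Hpse) was measured at 0.555, 0.956 and 2.05 FPKM and was called different between tumours both as deposited and with the trends removed, as Sulf1 was.

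For chondroitin and dermatan sulfate synthesis, 9 of 16 genes were above 1 FPKM and 4 below, beside the same 54.2% and 32.5%. Chsy1, a chain polymerase, was the highest at 21.6, 33.0 and 40.9 FPKM, and its relative Chsy3 was measured at 0.228 ± 0.030 FPKM. The epimerases of dermatan sulfate, Dse and Dsel, were measured at 2.10 ± 0.29 and 2.82 ± 1.65 FPKM. Of 5 keratan sulfate genes 2 were above 1 FPKM, led by B4galt4 at 13.9 ± 2.42 FPKM. Of 12 lysosomal breakdown genes 11 were above 1 FPKM and none below, beside 54.2% and 32.5% of all symbols. Hexa, a subunit of beta-hexosaminidase, was measured at 21.1, 39.5 and 55.2 FPKM.

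Of 6 hyaluronan turnover genes, 4 were above 1 FPKM and 1 below, beside 54.2% and 32.5% of all symbols. Tmem2, a cell surface hyaluronidase, was measured at 13.1, 20.7 and 12.9 FPKM, and Hyal2 exceeded Hyal1 in 3 of 3 tumours at 4.41 ± 1.27 against 2.10 ± 0.47 FPKM. The hyaluronan binding list had the smallest share above of the 10 lists. Of its 16 genes 2 were above 1 FPKM and 9 below, beside the same 54.2% and 32.5%. Besides Hmmr the other was Stab1, a scavenger receptor of macrophages, at 1.46, 2.57 and 4.33 FPKM. The link proteins Hapln1 and Hapln2 were listed at 0, and the heavy chains of the inter-alpha-trypsin inhibitor Itih1 to Itih4 were below 1 FPKM. Of 17 other proteoglycans, 4 were above 1 FPKM and 11 below, beside the same shares of all symbols. Col18a1 and Col15a1, collagens of basement membranes, were above it at 11.8 ± 4.95 and 3.84 ± 1.70 FPKM. The others above it were betaglycan (Tgfbr3) at 10.2 ± 1.39 FPKM and Cspg5 at 6.31 ± 2.33 FPKM. Between tumours 25 of 69 genes of the 10 lists were called, against 32.1%, and 10 with the trends removed, against 16.8%.

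**Figure D4:**
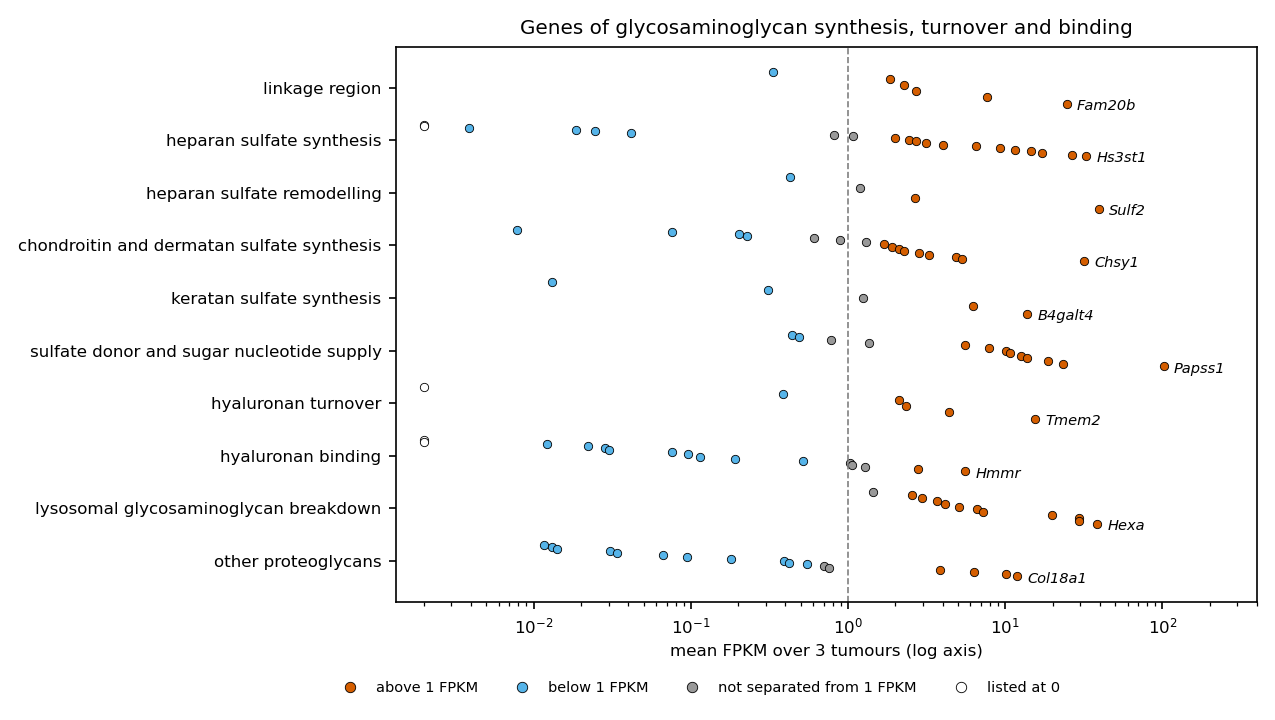
Mean FPKM over the 3 tumours (log axis) of the genes of 10 pathway lists, coloured by the limma call against 1 FPKM, with genes listed at 0 drawn at the left edge and the highest gene of each list named. Papss1 lies highest near 102 FPKM, and most hyaluronan binding genes lie left of the dashed line at 1 FPKM.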

How the data were processed

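Total RNA came from 3 snap-frozen tumours of 1 line. Per the labels' protocols, ribosomal RNA was depleted and directional libraries were made by random priming, which can favour some base compositions. Per the file headers, the deposited unit is FPKM with lower and upper interval bounds. TopHat, Cufflinks and mm9 are named by the submitters' processing notes. Their versions, the annotation and the strand setting are not stated there. Tumours were numbered in accession order, and the series names separate mice. Numbers in the sample titles are not explained.

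Rows of 221 repeated symbols were added up and 182 symbols without status OK were left out. Levels were tested with limma 3.58.1 (R 4.3.3, trend and robust moderation, pseudocount 0.1). Fold changes on that scale understate changes of low genes. Cochran's Q used interval half-widths as 2 standard errors. Fragments were implied from (FPKM/SE) squared. Under 60 fragments, 70.5%, 71.4% and 69.3% of rows lay within 0.02 of whole values, so no count test was run. Intervals and limits cover counting error only, and a count of 0 allows 3 fragments.

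GC content and length came from GENCODE vM21 transcripts by name (98.3% of symbols matched). Lowess trends with a span of 0.3 were removed, which also removes any biology that follows GC content. Promoters are from RefSeq.

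All 31 genes are named. Of pathway and marker lists, the 3 highest, those called between tumours and those of contrasts were named, and some are not reported here. Papss2, Xylt1, Ext1, Ext2, Chsy3, Dse, Krt5, the Itih genes, genes at 0 and overlapping genes fall outside this rule, and their values were known when they were named. Genes, lists and contrasts were chosen with earlier results of these data known. Alternatives were other pseudocounts, filters, scalings, ratios and moderation, and leaving out each tumour. The scripts were tested on simulated data.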

Additional observations from a re-analysis of the deposited data

How the results depend on the processing

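The number of genes above 1 FPKM stayed within 14 to 21 over all alternatives, but the number below it fell from 9 to 0 with a filter at a mean of 0.5 FPKM, which removes low genes, and to 5 with a total of 1e6. For the pathway lists it fell from 35 to 2 and 21. Differences between tumours fell from 12 genes to 5 with GC and length trends removed and ranged from 2 to 11 when 1 tumour was left out. The cause was not tested. Some levels near 1 FPKM turned sign on the log2 scale. When 1 tumour was left out, Fmod ranged from -0.17 to 0.52, Ogn from -0.71 to 0.13 and Gpc6 from -0.095 to 0.30. Ogn turned to 1.16 with a total of 1e6 and to 0.29 without loci under 300 bp, and Cspg4 to 0.078 with a total of 1e6. Aspn lost its call with median-of-ratios scaling (limma adjusted p = 0.0736). Among contrasts, heparan sulfate minus chondroitin and dermatan sulfate synthesis turned to -0.15 with a pseudocount of 0.01. With 1 tumour left out, Hspg2 minus Vcan ranged from -0.93 to 0.089 and Has1 minus Has2 from -0.40 to 0.33. Low genes such as Acan, Ncan and Epyc rest on 3 fragments or fewer per tumour. No comparison between groups was possible because the 3 tumours form a single group.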
